A study of Mus musculus with 14 samples.

Results

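The genes described here encode the D cyclins (Ccnd1, Ccnd2, Ccnd3), their catalytic partners (Cdk4, Cdk6) and 5 inhibitors of cyclin-dependent kinases (Cdkn1a, Cdkn1b, Cdkn2a, Cdkn2b, Cdkn2c). They were taken by name, and they are 10 of the 29713 genes measured. All 10 were found and all 10 passed the filter on low counts. RNA-seq was done on mouse neural stem cells (NSC) grown in culture from the OG2 strain, in 14 libraries of 1 condition each. At passage 8, 12 libraries combined 4 stages with 3 treatments. The stages were undifferentiated cells and cells differentiated for 2, 4 or 8 days (D2, D4 and D8 in the labels), and the treatments were naloxone, DAMGO and a control named NC. Naloxone blocks opioid receptors, whereas DAMGO is a peptide that activates the mu opioid receptor. The other 2 libraries were undifferentiated NSC at passage 13 and at passage 8 with no named treatment, called the reference libraries here. No condition was replicated, so the spread behind each test is what an additive model of stage and treatment left unexplained. The mean and SD of a stage are over its 3 libraries, 1 for each treatment.

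In G1, growth signals raise the D cyclins, which bind the kinases CDK4 and CDK6. The active pair phosphorylates the retinoblastoma protein, which then releases E2F transcription factors and lets genes of S phase be transcribed. The Ink4 inhibitors (p15, p16, p18 and p19) bind CDK4 and CDK6 and keep the D cyclins off, while the Cip/Kip inhibitors (p21, p27 and p57) bind cyclin and kinase together and block CDK2 most strongly. In neural progenitors cyclin D1 and cyclin D2 are known to promote division, and p27 and p18 are known to limit it. The comparison between stages asks how this G1 machinery changed at the RNA level as the cells differentiated.

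The libraries held 4143030 to 9070533 expected counts, which makes 3 counts in a library 0.331 to 0.724 CPM (counts scaled by the size of the library). Summed levels of 6 proliferation markers were 3514 to 3660 CPM in undifferentiated cells, 250.5 to 294 at day 2, 142 to 154 at day 4 and 126 to 167 at day 8. The 8 astrocyte markers summed to 1184 to 1238, 4332 to 4655, 6390 to 6489 and 15795 to 17528 CPM at those stages in the same order. The 9 stem and progenitor markers summed to 7161 to 7463 CPM in undifferentiated cells and 6013 to 6628 at day 2. They summed to 3979 to 4135.5 CPM at day 4 and 8196 to 8430 at day 8, with counts for each of them. The 7 mesenchymal and pericyte markers summed to 2.22 to 7.36 CPM in undifferentiated cells, 7.40 to 9.39 at day 2, 108 to 113 at day 4 and 124 to 150.1 at day 8. The 6 oligodendrocyte precursor markers summed to 2651 to 2854 CPM in undifferentiated cells, 4464 to 5308 at day 2, 3986 to 4043 at day 4 and 1930.2 to 2061 at day 8. The 6 oligodendrocyte markers summed to 88.7 to 92.9, 574 to 633, 415 to 443 and 404 to 438 CPM at the same stages, and the 8 neuron markers to 1290 to 1325, 797 to 1891, 2007 to 2088 and 487 to 638 CPM. The 4 pluripotency markers summed to at most 4.87 CPM. Such sums can hide genes that went the other way. By edgeR's test at an adjusted p under 0.05, 3 of 4 oligodendrocyte markers tested rose from day 2 to day 4 and 1 fell. Of all genes, 27.1% rose and 24.8% fell. At day 8, 4 of 7 neuron markers tested were higher than in undifferentiated cells and 2 lower. Of the 6 oligodendrocyte precursor markers 3 were higher and 3 lower, and of the 9 stem and progenitor markers 6 and 3. Of all genes, 41.6% were higher and 38.5% lower. The part of these cell types in the results was not tested. The microglial markers summed to at most 1.81 CPM with Cx3cr1 at 0 in every library, and the endothelial markers to at most 24.4 CPM with Cdh5 and Cldn5 at 0. The day 2 NC library stood apart from the additive model, with a root mean square residual of 0.264 on the log2 scale against 0.122 to 0.186 in the other 11, so day 2 results are given with and without it. At day 2 the neuron markers summed to 797 CPM under naloxone and 1012 CPM under DAMGO, against 1891 CPM in that NC library. In bulk RNA of this kind, fewer cells of a type and less RNA per cell cannot be told apart.

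As the cells differentiated, Ccnd1 and Ccnd2 RNA was strongly reduced, Cdk4 fell less than either, and the inhibitor transcripts moved in opposite directions. At day 8 Ccnd1, Ccnd2, Cdk4, Cdk6, Cdkn1a, Cdkn1b and Cdkn2c had fallen against undifferentiated cells, and Ccnd3, Cdkn2a and Cdkn2b had risen. The largest fall among them was that of Ccnd1, 64.3-fold lower, and the largest rise that of Cdkn2b, 10.6-fold higher. The day 8 changes of Ccnd3 (log2 -0.12), Cdkn1b (0.31) and Cdkn2a (-0.51) went the other way once a trend on GC content and length was removed. By edgeR's quasi-likelihood test 3 members were higher and 7 lower at day 8 at an adjusted p under 0.05, in a comparison where 41.6% of all 13144 genes tested were higher and 38.5% lower. At day 2 and at day 4 it was 1 higher, 7 lower and 2 not past the threshold. The shares of all genes were 33.7% higher and 35.9% lower at day 2, and 31.4% higher and 31% lower at day 4. The members' median log2 change was -0.63 at day 2, -1.44 at day 4 and -1.01 at day 8, against -0.01, -0.01 and 0.05 over all genes tested. With so many genes called, the sizes of the changes tell more than their number.

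**Figure D1:**
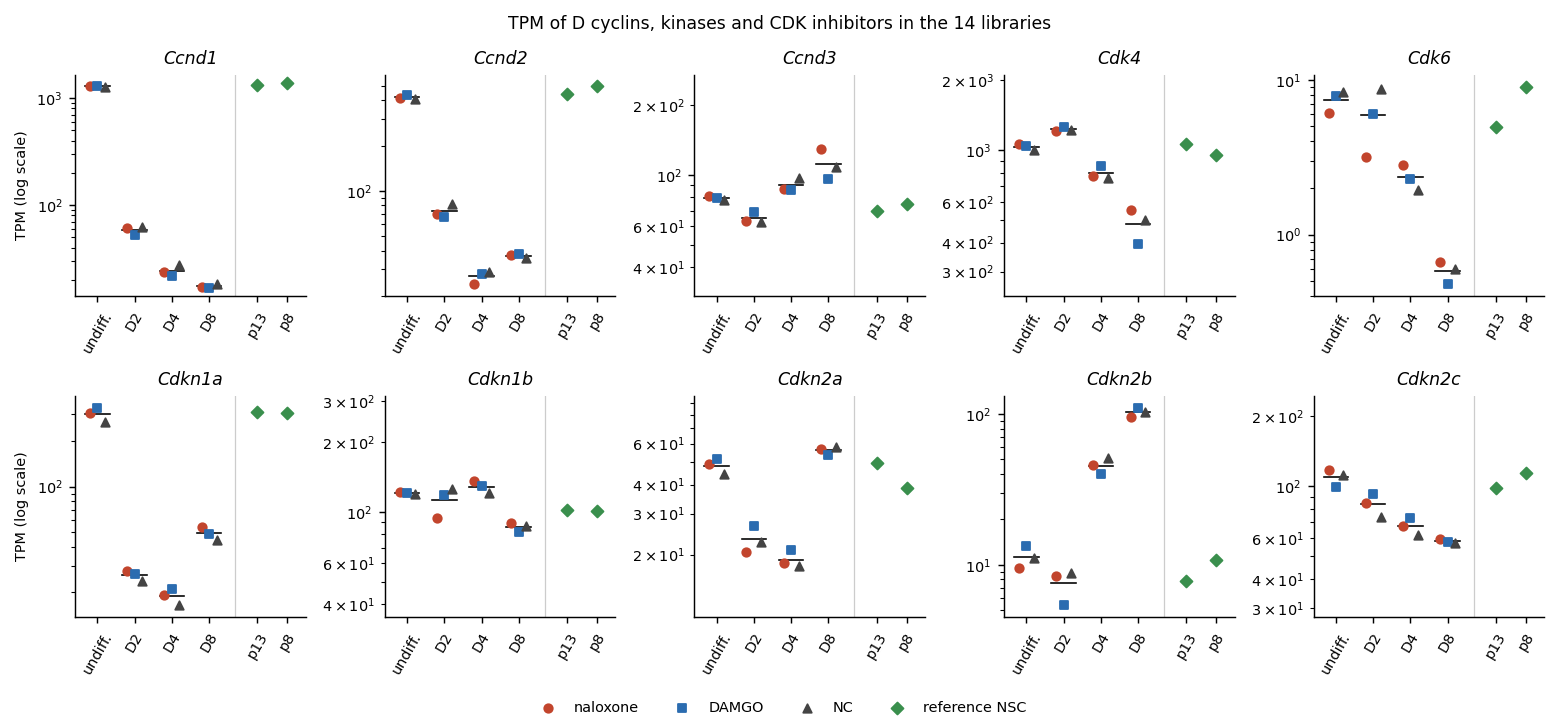
Level of each of the 10 genes in each of the 14 libraries, in TPM on a log axis, by stage (undifferentiated, day 2, day 4, day 8, then the passage 13 and passage 8 reference libraries) and coloured by treatment. Ccnd1 and Ccnd2 drop at day 2 and Cdkn2b climbs at day 4 and day 8, and the 3 treatments of a stage lie close together for most genes.

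Cyclin D1 was the main D cyclin of undifferentiated cells. Ccnd1 stood at 1290.5, 1306 and 1278 TPM (a level relative to all transcripts of the library and corrected for length) in undifferentiated cells under naloxone, DAMGO and NC. It stood at 61.5, 52.8 and 62.7 TPM under the same treatments at day 2, at 23.7, 21.6 and 27.4 TPM at day 4, and at 17.1, 16.8 and 18.2 TPM at day 8. In TPM each stage lay below the one before it with no overlap. In CPM day 8 (36.3 to 39.7) overlapped day 4 (35.1 to 44.9). Most of the loss had occurred by day 2. The log2 change against undifferentiated cells was -4.44 ± 0.08 (SE) at day 2, -5.92 ± 0.09 at day 4 and -6.01 ± 0.09 at day 8, with edgeR adjusted p of 5.07e-10, 1.02e-10 and 4.71e-11. Between day 4 and day 8 the fitted change was -0.08 ± 0.08 and did not pass (edgeR adjusted p = 0.385), although it passed when library totals replaced TMM scaling (-0.25, adjusted p = 0.0285) or when TPM was tested (-0.45, limma adjusted p = 0.000792), and with a trend on GC content and length removed (-0.38, adjusted p = 0.00267). Between those days the median of all genes tested moved by 0.07 with TMM scaling, -0.09 with library totals and -0.29 in TPM. Ccnd1 lies at chr7:144929931-144939925 (mm10, minus strand) and overlaps LTO1 on the other strand.

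Cyclin D2, which neural progenitors use beside cyclin D1, followed a different course. Ccnd2 stood at 418, 436 and 406 TPM in undifferentiated cells under naloxone, DAMGO and NC, at 70.03, 67.3 and 81.2 at day 2, at 23.8, 27.99 and 28.9 at day 4, and at 37.1, 38.0 and 35.7 at day 8. Its lowest stage was day 4, and the day 8 libraries lay above all day 4 libraries. The log2 change against undifferentiated cells was -2.50 ± 0.08 at day 2, -4.16 ± 0.09 at day 4 and -3.30 ± 0.08 at day 8 (edgeR adjusted p = 2.59e-10 at day 8, 9.85-fold lower). From day 4 to day 8 it rose 1.81-fold (log2 0.86 ± 0.08, edgeR adjusted p = 8.92e-06), while Ccnd1 did not rise. Ccnd2 lies at chr6:127125162-127152193 on the minus strand, with antisense genes annotated across it.

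Cyclin D3, which is widely expressed in adult tissues, did not share the deep fall. Ccnd3 stood at 81.0, 79.3 and 77.9 TPM in undifferentiated cells under naloxone, DAMGO and NC, at 63.4, 69.2 and 62.7 at day 2, at 87.0, 85.8 and 97.1 at day 4, and at 129, 96.1 and 108 at day 8. The day 8 libraries lay above the undifferentiated ones, and the day 4 and day 8 libraries overlapped in TPM. Ccnd3 rose by 0.65 ± 0.11 log2 units at day 8 (edgeR adjusted p = 0.000317, 1.57-fold) and by 0.72 ± 0.11 from day 4 to day 8 (edgeR adjusted p = 0.000272). With a trend on GC content and length removed, the day 8 value was -0.12 (adjusted p = 0.201) and the change from day 4 was 0.09 (adjusted p = 0.368), so its direction against undifferentiated cells depends on that correction. Ccnd3 lies at chr17:47505051-47599691 on the plus strand and overlaps Bysl on the other strand.

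The make-up of the D cyclins therefore changed. In undifferentiated cells Ccnd1 made up 72.1 ± 0.395% of the summed TPM of the 3 D cyclins, Ccnd2 23.4 ± 0.436% and Ccnd3 4.43 ± 0.0870% (SD, n = 3). At day 2 the shares were 29.9% Ccnd1, 36.9% Ccnd2 and 33.1% Ccnd3, and at day 4 they were 17.1%, 19.1% and 63.8%. At day 8 Ccnd1 held 10.6 ± 1.11%, Ccnd2 22.5 ± 2.49% and Ccnd3 66.9 ± 3.41%. The most abundant D cyclin RNA was thus Ccnd1 in undifferentiated cells and Ccnd3 from day 4 on, and at day 2 Ccnd2 led with libraries that overlapped those of Ccnd3. The summed TPM of the 3 genes was 1791 ± 29.7 in undifferentiated cells, then 197 ± 8.80 at day 2, 141 ± 10.7 at day 4 and 165 ± 16.7 at day 8. A TPM is relative to all other RNA of its library, and the median gene moved against undifferentiated cells by -0.05 on the log2(TPM + 1) scale at day 2, by 0.16 at day 4 and by -0.16 at day 8, which is small beside these changes. Changes between stages are therefore taken from the scaled counts.

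**Figure D2:**
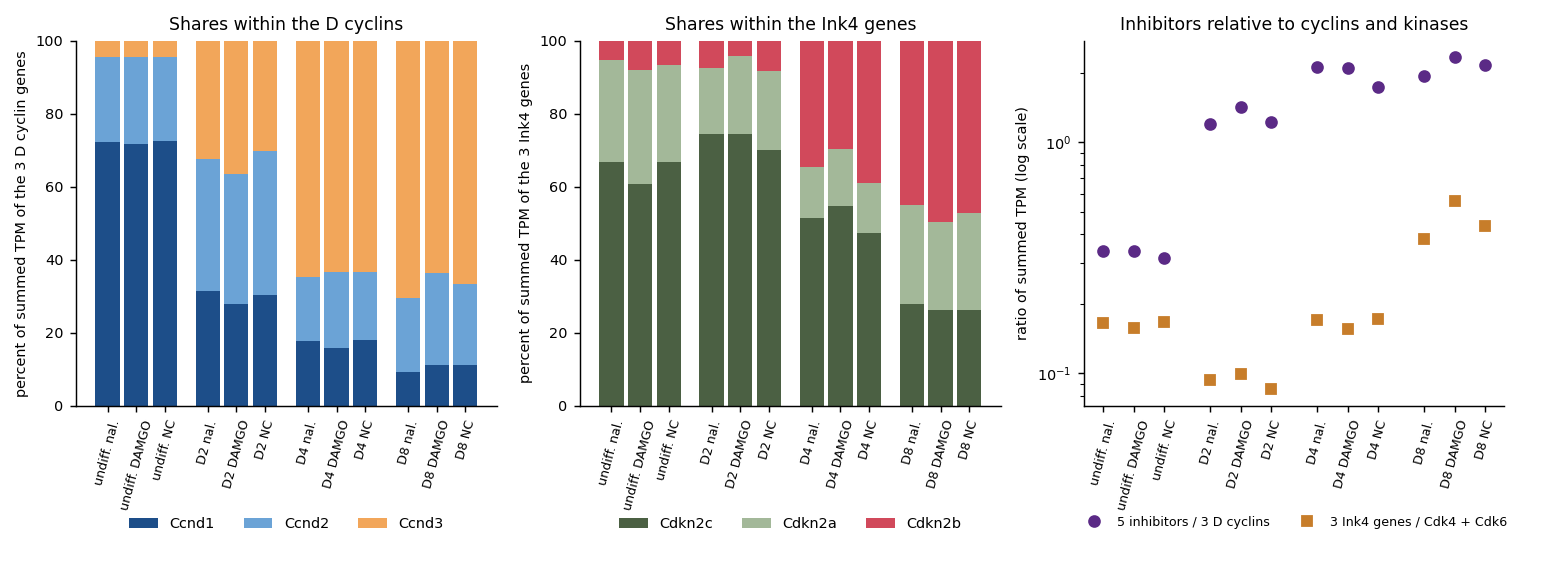
Stacked bars give each gene's percent of the summed TPM of the D cyclins and of the Ink4 inhibitors (Cdkn2a, Cdkn2b, Cdkn2c) in every library, and dots give the ratios of summed TPM on a log axis, by stage. Ccnd3 holds 66.9% of the D cyclins at day 8 and Ccnd1 72.1% in undifferentiated cells, and Cdkn2b holds 47.4% of the Ink4 sum at day 8 and 6.70% in undifferentiated cells.

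Nearly all of the kinase RNA was Cdk4, which changed less than Ccnd1 and Ccnd2. Cdk4 stood at 1059, 1043 and 1000.4 TPM in undifferentiated cells under naloxone, DAMGO and NC, at 1214, 1256 and 1222 at day 2, at 774, 854 and 762 at day 4, and at 553, 396 and 499 at day 8. No stages overlapped, with day 2 highest and day 8 lowest. In counts it fell by 0.63 log2 units at day 4 (SE 0.07, edgeR adjusted p = 1.93e-05) and by 0.80 at day 8 (SE 0.07, edgeR adjusted p = 1.99e-06, 1.74-fold lower). The day 8 values spread more widely in TPM than in CPM, where they were 334, 292 and 311, and the deposited mean transcript length of Cdk4 was 1387 bases under DAMGO against 1175 under naloxone and 1179 under NC. From day 4 to day 8 the counts changed by -0.16 ± 0.07 (edgeR adjusted p = 0.0547). That change passed without the day 2 NC, day 2 DAMGO or day 8 naloxone library (edgeR adjusted p = 0.0108, 0.0471 and 0.0448), on the TPM scale (-0.73, limma adjusted p = 0.000172), and in 9 of the 21 alternative settings in all. On the TPM scale the median of all genes tested moved by -0.29 between those days. With a trend on GC content and length removed, Cdk4 was -1.62 at day 8 (adjusted p = 3.16e-11) and -0.97 from day 4 to day 8 (adjusted p = 2.24e-08), a larger fall in both. Cdk4 lies at chr10:127063534-127067920 on the plus strand and overlaps Tspan31 on the other strand.

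Cdk6 was a minor kinase at every stage and fell further. It stood at 6.11, 7.84 and 8.37 TPM in undifferentiated cells under naloxone, DAMGO and NC, at 3.16, 5.99 and 8.69 at day 2, at 2.80, 2.28 and 1.93 at day 4, and at 0.67, 0.48 and 0.60 at day 8. The day 2 libraries spread over the whole range of the undifferentiated ones, while the day 4 and day 8 libraries lay below both. At day 8 these were 12, 6 and 7 expected counts, so the fold rests on few reads. Cdk6 was 3.52-fold lower at day 4 (log2 -1.81 ± 0.30, edgeR adjusted p = 0.000409) and 10.2-fold lower at day 8 (log2 -3.35 ± 0.35, edgeR adjusted p = 7.56e-06). Its share of the summed TPM of the 2 kinases was 0.716 ± 0.131% in undifferentiated cells, then 0.480 ± 0.223% at day 2, 0.293 ± 0.0589% at day 4 and 0.121 ± 0.000494% at day 8. Cdk6 lies at chr5:3341485-3531008 on the plus strand, with antisense genes annotated within it.

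The promoter of Cdk4 is shown because it holds the most E-box letters of the 12 member windows searched. RefSeq's tables (GRCm38.p6) gave windows of 250 bases before to 50 after a start site for 8 of the 10 genes. The window of Cdk4 is chr10:127063285-127063584 on the plus strand, and capitals here and in the windows printed further on mark every match, on either strand, of the letters CACGTG (E-box, bound by Myc and related factors), GGGCGG (GC box), CCAAT (NF-Y), TGACGTCA (CRE), TTTCCCGC or TTTGGCGC (E2F) and TTTGAA or TTCGAA (CHR).
Cdk4: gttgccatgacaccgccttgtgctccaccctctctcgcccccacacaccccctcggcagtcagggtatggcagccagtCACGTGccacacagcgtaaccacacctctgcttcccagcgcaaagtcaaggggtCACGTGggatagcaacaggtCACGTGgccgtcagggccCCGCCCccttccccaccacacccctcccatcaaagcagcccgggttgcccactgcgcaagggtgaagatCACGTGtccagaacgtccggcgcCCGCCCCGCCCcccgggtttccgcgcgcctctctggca
The CACGTG matches lie at -172, -118, -98 and -11 from the start site, and 7.15% of 32851 promoter windows of that length hold at least 1. The GC box letters match at -80, 12 and 17, the last 2 overlapping in 1 run of capitals, and 35.7% of windows hold them. Of the other member windows, that of Cdk6 holds CACGTG at -220 and the downstream window of Cdkn2c holds it at 34.

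Among the Cip/Kip inhibitors, Cdkn1a lay below its level in undifferentiated cells at every stage of differentiation. Cdkn1a encodes p21, a target of p53 that also helps assemble D cyclins with their kinases. It stood at 307, 332 and 268 TPM in undifferentiated cells under naloxone, DAMGO and NC, at 27.7, 26.7 and 23.98 at day 2, at 19.3, 21.2 and 16.5 at day 4, and at 54.2, 48.9 and 44.1 at day 8. Undifferentiated libraries lay far above every differentiating one, day 4 was the lowest stage and day 8 lay above day 2 and day 4 without overlap. Against undifferentiated cells the log2 change was -3.39 ± 0.08 at day 2, -4.05 ± 0.09 at day 4 and -2.43 ± 0.08 at day 8 (edgeR adjusted p = 1.25e-09 at day 8, 5.41-fold lower). From day 4 to day 8 it rose 3.06-fold (log2 1.61 ± 0.09, edgeR adjusted p = 2.78e-07). Cdkn1a lies at chr17:29090976-29100727 on the plus strand.

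Cdkn1b, which encodes p27, changed little before day 8. It stood at 122, 120.5 and 119 TPM in undifferentiated cells under naloxone, DAMGO and NC, at 93.8, 118 and 125 at day 2, at 135, 129 and 119.8 at day 4, and at 89.4, 81.9 and 87.2 at day 8. The stages overlapped up to day 4, and the day 8 libraries lay below all others. Its log2 change was -0.20 ± 0.10 at day 2 (edgeR adjusted p = 0.117) and -0.14 ± 0.11 at day 4 (edgeR adjusted p = 0.28), and it fell by 0.52 at day 8 (SE 0.11, edgeR adjusted p = 0.00103) and by 0.38 from day 4 to day 8 (SE 0.11, edgeR adjusted p = 0.00867). Cdkn1b has the lowest GC content of the 10 genes, 44.1% against 51.4 to 59.0% in the others. With a trend on GC content and length removed its values were 0.43 at day 2 (adjusted p = 0.00169), 0.31 at day 8 (adjusted p = 0.0126) and 0.30 from day 4 to day 8 (adjusted p = 0.0188), all in the other direction. At chr6:134920401-134925513 on the plus strand it overlaps no other annotated gene.

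Together these changes replaced p21 by p27 as the leading inhibitor RNA during the first days. Cdkn1a made up 50.9 ± 2.76% of the summed TPM of the 5 inhibitors in undifferentiated cells, then 10.4 ± 1.23% at day 2, 6.79 ± 0.655% at day 4 and 13.9 ± 1.29% at day 8. Cdkn1b made up 20.4 ± 1.02%, 44.3 ± 4.69%, 45.9 ± 1.28% and 24.5 ± 1.05% at those 4 stages in the same order. The level of Cdkn1b itself was 112 ± 16.3 TPM at day 2 and 128 ± 7.86 TPM at day 4, against 121 ± 1.26 TPM in undifferentiated cells. At day 8 the largest share was that of Cdkn2b, with 29.2 ± 2.20% against 1.91 ± 0.303% in undifferentiated cells.

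The Ink4 inhibitors went in opposite directions. Cdkn2b encodes p15, an inhibitor known as a target of TGF-beta signalling in epithelial cells. It stood at 9.49, 13.2 and 11.2 TPM in undifferentiated cells under naloxone, DAMGO and NC, at 8.44, 5.38 and 8.81 at day 2, at 45.7, 39.8 and 50.9 at day 4, and at 95.8, 110.3 and 103 at day 8. Day 4 lay above both earlier stages and day 8 above day 4, in every library. The counts behind them were 594, 472 and 413 at day 8, against 35, 48 and 35 in undifferentiated cells. Cdkn2b was 3.53-fold higher at day 4 (log2 1.82 ± 0.17, edgeR adjusted p = 6.97e-06) and 10.6-fold higher at day 8 (log2 3.40 ± 0.16, edgeR adjusted p = 2.19e-08), and it rose 2.99-fold from day 4 to day 8 (edgeR adjusted p = 7.46e-06). The summed mesenchymal and pericyte markers given above were also higher at day 4 and day 8. Only 2 of those 7 genes passed the filter on low counts. Against undifferentiated cells 1 of the 2 was higher at day 4 and both were higher at day 8. Of all genes, 31.4% were higher at day 4 and 41.6% at day 8. The part of these markers in the rise of Cdkn2b was not tested.

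Cdkn2a, the neighbour of Cdkn2b on chromosome 4, encodes p16 and, from another first exon, p19Arf. It stood at 48.9, 51.4 and 44.2 TPM in undifferentiated cells under naloxone, DAMGO and NC, at 20.6, 26.5 and 22.7 at day 2, at 18.3, 20.8 and 17.9 at day 4, and at 57.1, 53.4 and 57.9 at day 8. It was lowest at day 4, where 1 library overlapped day 2, and day 8 lay above the undifferentiated libraries by a small margin. Cdkn2a fell by 1.03 log2 units at day 2 (SE 0.13, edgeR adjusted p = 5.81e-05) and by 1.53 at day 4 (SE 0.14, edgeR adjusted p = 5.43e-06), then rose 3.93-fold from day 4 to day 8 (log2 1.97 ± 0.14, edgeR adjusted p = 1.41e-06). Its day 8 level was 0.44 ± 0.12 above undifferentiated cells (edgeR adjusted p = 0.00619). That rise was 0.22 on the TPM scale (limma adjusted p = 0.0858) and -0.51 with a trend on GC content and length removed (adjusted p = 0.00137), so its direction depends on the processing. Gene-level counts and TPM do not separate the p16 and p19Arf transcripts, of 852 and 895 bases in GENCODE M21. The deposited mean transcript length of Cdkn2a was 887 bases in undifferentiated cells and 879 at day 8. Its change did not pass (log2 -0.01 ± 0.01, limma adjusted p = 0.69). Because the lengths of 852 and 895 bases lie close together, this test has little reach for a shift between the 2 transcripts. If the authors used these lengths, the p19Arf transcript made up 80.3 ± 10.5% of Cdkn2a molecules in undifferentiated cells. At day 8 it then made up 62.4 ± 5.35% (SD, n = 3). These shares were not tested.

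Cdkn2a lies at chr4:89274471-89294653 and Cdkn2b at chr4:89306299-89311039, both on the minus strand. At day 2 both were below undifferentiated cells, at day 4 Cdkn2b had risen and Cdkn2a had fallen, and from day 4 to day 8 both rose. From day 4 to day 8, 5 members were higher and 2 lower, where 37.1% of genes were higher and 31.5% lower. From day 2 to day 4 it was 1 higher and 7 lower, where 27.1% of genes were higher and 24.8% lower. The 5 that rose from day 4 to day 8 were Ccnd2, Ccnd3, Cdkn1a, Cdkn2a and Cdkn2b, and the 2 that fell were Cdk6 and Cdkn1b. The change of Cdkn2a from day 2 to day 4 was -0.51 ± 0.15 (edgeR adjusted p = 0.0171), and it did not pass without the day 2 DAMGO, day 4 NC or day 4 naloxone library (edgeR adjusted p = 0.0815, 0.0572 and 0.0578), with DESeq2 (adjusted p = 0.081) or on the TPM scale (limma adjusted p = 0.0581 and 0.0548 with 1 and 0.1 added). With a trend on GC content and length removed it was -0.04 (adjusted p = 0.897). With that trend removed the changes from day 4 to day 8 were smaller, 0.99 for Cdkn1a, 1.06 for Cdkn2a and 0.82 for Cdkn2b, and each passed.

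The windows of this neighbouring pair are shown because both genes rose from day 4 to day 8. They lie on the minus strand of GRCm38.p6 at chr4:89310983-89311282 (Cdkn2b), chr4:89294570-89294869 (the start of the p19Arf transcript) and chr4:89282143-89282442 (the start of the p16 transcript), and each is written in the direction of transcription.
Cdkn2b: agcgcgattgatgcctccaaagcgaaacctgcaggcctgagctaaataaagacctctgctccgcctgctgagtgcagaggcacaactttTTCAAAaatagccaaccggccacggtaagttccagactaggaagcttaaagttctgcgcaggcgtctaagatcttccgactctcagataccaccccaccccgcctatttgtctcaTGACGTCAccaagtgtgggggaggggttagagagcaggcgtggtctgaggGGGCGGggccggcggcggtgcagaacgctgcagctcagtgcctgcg
Cdkn2a, p19Arf start: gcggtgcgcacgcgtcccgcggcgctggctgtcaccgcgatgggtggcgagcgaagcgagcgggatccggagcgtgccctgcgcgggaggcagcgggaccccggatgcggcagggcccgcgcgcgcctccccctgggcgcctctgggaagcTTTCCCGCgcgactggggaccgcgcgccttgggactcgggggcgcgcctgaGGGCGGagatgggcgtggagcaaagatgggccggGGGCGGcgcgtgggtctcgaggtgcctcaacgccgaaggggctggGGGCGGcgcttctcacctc
Cdkn2a, p16 start: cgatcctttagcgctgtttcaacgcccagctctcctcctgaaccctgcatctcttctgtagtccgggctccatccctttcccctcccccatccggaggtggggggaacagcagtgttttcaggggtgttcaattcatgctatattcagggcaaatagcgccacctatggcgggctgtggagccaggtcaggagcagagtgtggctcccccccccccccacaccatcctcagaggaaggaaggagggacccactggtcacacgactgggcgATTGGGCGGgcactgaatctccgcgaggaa
The Cdkn2b window holds the CRE letters TGACGTCA at -46, which 1.79% of all windows hold, the CHR letters TTTGAA on the reverse strand at -161, which 17.9% hold, and a GC box at 4. The p19Arf window holds the E2F letters TTTCCCGC at -99, and it was the only one of the 12 member windows with either E2F motif, which 1.57% of all windows hold. It has 3 GC boxes, at -48, -14 and 31. The p16 window holds CCAAT on the reverse strand at 20, which 37.4% of all windows hold, overlapping a GC box at 23. A match describes letters in the window and does not show that a factor binds there.

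Cdkn2c, which encodes p18, was the leading Ink4 RNA of undifferentiated cells and fell. It stood at 118, 99.6 and 112 TPM in undifferentiated cells under naloxone, DAMGO and NC, at 84.6, 92.7 and 73.5 at day 2, at 67.5, 73 and 61.9 at day 4, and at 59.4, 57.9 and 56.9 at day 8. Each stage lay below the one before it without overlap in TPM. In counts it fell by 0.74 log2 units at day 2 (SE 0.10, edgeR adjusted p = 6.67e-05), by 1.35 at day 4 (SE 0.10, edgeR adjusted p = 9.40e-07) and by 1.23 at day 8 (SE 0.10, edgeR adjusted p = 1.01e-06, 2.34-fold lower). Counts are not corrected for transcript length, which also fell, as described below. The part of length in these falls was not tested. Over the 21 alternative settings the day 2 change ran from -0.92 to -0.39. The day 4 change ran from -1.43 to -0.69 and the day 8 change from -1.78 to -0.90. From day 4 to day 8 the change of 0.12 ± 0.10 did not pass (edgeR adjusted p = 0.32), and with a trend on GC content and length removed it was -0.42 (adjusted p = 0.00168). Of the summed Ink4 TPM, Cdkn2c held 64.8 ± 3.61% in undifferentiated cells, then 72.96 ± 2.54% at day 2, 51.1 ± 3.64% at day 4 and 26.7 ± 1.06% at day 8. Cdkn2b held 6.70 ± 1.34%, 6.71 ± 2.13%, 34.5 ± 4.59% and 47.4 ± 2.33% at those stages in the same order. The Ink4 sum was 169 ± 6.36, 114 ± 9.81, 132 ± 1.54 and 217 ± 4.66 TPM.

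The transcripts of Cdkn2c also became shorter. The deposited files give for each gene a mean transcript length, weighted by the estimated abundance of its transcripts, and for Cdkn2c this was 1837, 1968 and 1827 bases in undifferentiated cells under naloxone, DAMGO and NC, with a mean of 1877 ± 78.7 bases (SD, n = 3). It was 1486 ± 18.0 bases at day 2, 1416 ± 25.9 at day 4 and 1353 ± 9.31 at day 8. It was 2054 and 1929 bases in the passage 13 and passage 8 reference libraries. Every differentiating library lay below every undifferentiated one. By limma on the log2 length, over 8030 genes with at least 5 CPM on average and a length that varied, the length of Cdkn2c changed by -0.34 ± 0.03 log2 units at day 2, -0.41 ± 0.03 at day 4 and -0.47 ± 0.03 at day 8 (limma adjusted p = 0.00384, 0.00161 and 0.00062). At an adjusted p under 0.05, 0.822% of these genes were shorter at day 2, 0.573% at day 4 and 2.04% at day 8. Between day 2 and day 4 and between day 4 and day 8 its length change did not pass (limma adjusted p = 0.421 and 0.355).

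Cdkn2c is known in the mouse to be transcribed from alternative promoters, and GENCODE M21 lists a long transcript of 2471 bases that starts at chr4:109667189 and a short one of 1106 bases that starts at chr4:109665372, both on the minus strand and both ending at chr4:109660876. Their windows in RefSeq are shown because these starts separate the long from the short transcript. The upstream window is chr4:109666707-109667006, whose start site lies downstream of the GENCODE one, and the downstream window is chr4:109665323-109665622.
Cdkn2c, upstream start: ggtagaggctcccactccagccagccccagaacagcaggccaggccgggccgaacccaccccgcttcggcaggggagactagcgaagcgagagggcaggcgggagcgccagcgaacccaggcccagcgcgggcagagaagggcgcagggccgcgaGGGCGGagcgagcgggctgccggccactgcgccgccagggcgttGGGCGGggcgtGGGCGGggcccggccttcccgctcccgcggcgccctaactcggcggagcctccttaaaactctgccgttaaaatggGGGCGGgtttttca
Cdkn2c, downstream start: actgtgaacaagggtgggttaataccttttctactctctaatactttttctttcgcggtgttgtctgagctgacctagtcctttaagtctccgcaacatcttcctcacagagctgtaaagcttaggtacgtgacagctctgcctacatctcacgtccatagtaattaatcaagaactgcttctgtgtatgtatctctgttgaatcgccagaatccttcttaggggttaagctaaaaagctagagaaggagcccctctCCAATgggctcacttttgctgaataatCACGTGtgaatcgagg
The upstream window holds 4 GC boxes, at -95, -51, -40 and 36, and none of the other motifs. The downstream window holds no GC box, but holds CCAAT at 7 and CACGTG at 34.

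If the 2 GENCODE lengths are those of the transcripts the authors quantified, the lengths translate into shares. On that reading the long transcript made up 56.5 ± 5.77% of Cdkn2c molecules in undifferentiated cells, then 27.8 ± 1.32% at day 2, 22.7 ± 1.90% at day 4 and 18.1 ± 0.682% at day 8 (SD, n = 3). Its level was 61.7, 23.2, 15.4 and 10.5 TPM at those 4 stages, and that of the short transcript was 48.1, 60.4, 52.1 and 47.6 TPM. The fall in Cdkn2c TPM then lay in the long transcript, while the short one had its highest mean at day 2 and its lowest at day 8. The annotation release the authors used is not given in the sources used here. Of 14836 genes with a single transcript in the deposited files that GENCODE M21 also holds, 71.8% had the same length within 0.5 bases. Both members with 1 listed transcript differed from GENCODE M21. Ccnd2 had 5701 bases against 6330, and Cdkn2b had 1393 against 1390, so the shares rest on lengths that may differ too.

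Of the other 7 members whose length varied, only Cdkn1b passed. Its mean transcript length was 3059 ± 66.9 bases in undifferentiated cells, then 2834 ± 126 at day 2, 2997 ± 36.9 at day 4 and 2613 ± 12.5 at day 8. The day 8 libraries lay below all others, and the change against undifferentiated cells was -0.23 ± 0.03 log2 units (limma adjusted p = 0.00881). Against day 4 it was -0.20 ± 0.03 (limma adjusted p = 0.0294), and that call was lost (limma adjusted p = 0.0562 to 0.104) when any of 8 libraries was left out, namely undifferentiated NC, day 2 DAMGO and each of day 4 and day 8. The part of this shorter length in the day 8 counts of Cdkn1b, which are not corrected for length, was not tested. GENCODE lists for Cdkn1b transcripts of 2393 and 4552 bases with the same start and end, so the longer one keeps intron sequence. The lengths of Ccnd2 and Cdkn2b did not vary, as the files list 1 transcript for each.

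**Figure D3:**
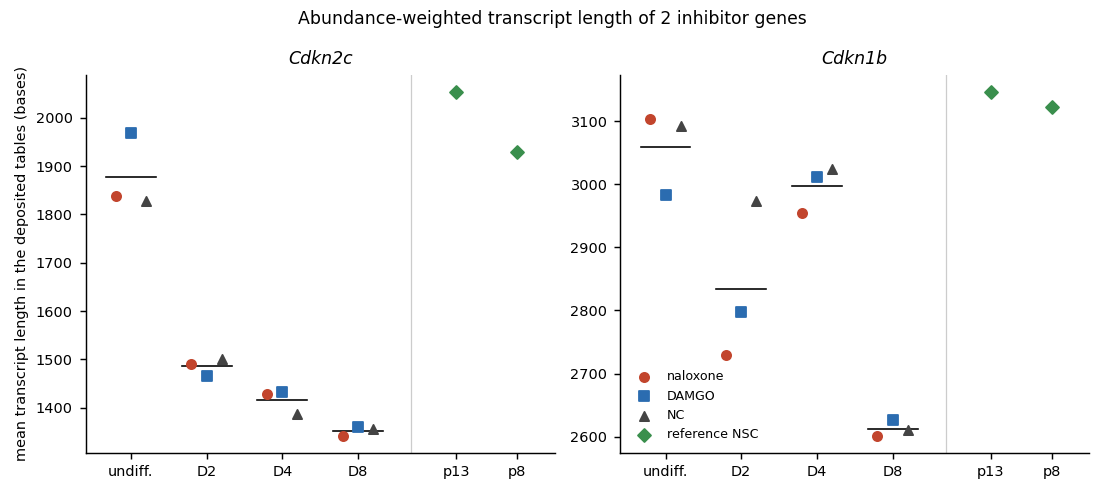
Deposited mean transcript length, in bases, of Cdkn2c and Cdkn1b in each library, by stage and coloured by treatment. Cdkn2c averages 1353 bases at day 8 and 1877 in undifferentiated cells, and Cdkn1b is shortest at day 8, with 2613 bases.

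Set against each other, the inhibitors gained on the D cyclins at every stage up to day 4. The TPM of the 5 inhibitors per TPM of D cyclin was 0.331 ± 0.0136 in undifferentiated cells, then 1.29 ± 0.117 at day 2, 1.99 ± 0.215 at day 4 and 2.14 ± 0.199 at day 8 (SD, n = 3), and day 4 and day 8 overlapped. The summed inhibitors themselves stood at 253 ± 16.9 TPM at day 2 and at 352 ± 3.49 TPM at day 8, against 592 ± 32.9 TPM in undifferentiated cells. The kinases per D cyclin were 0.582 ± 0.0122, 6.29 ± 0.356, 5.69 ± 0.675 and 2.91 ± 0.249 over the 4 stages. The Ink4 inhibitors per kinase were 0.163 ± 0.00543, 0.0925 ± 0.00675, 0.165 ± 0.00815 and 0.459 ± 0.0899, lowest at day 2 and highest at day 8. These are ratios of RNA and say nothing of protein amounts or complexes.

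**Figure D4:**
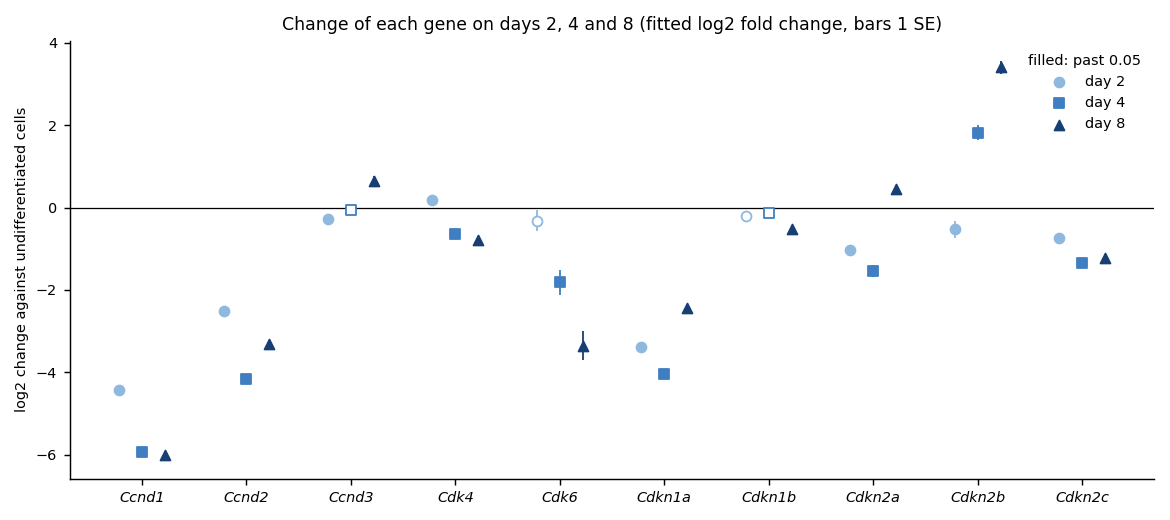
Fitted log2 change of each gene at day 2, day 4 and day 8 against undifferentiated cells (edgeR, bars are SE derived from the F statistic), with filled points past an adjusted p of 0.05. Ccnd1, Ccnd2 and Cdkn1a lie far below 0 at every stage, Cdkn2b lies at 3.40 at day 8, and Ccnd3, Cdk4, Cdkn1b and Cdkn2a lie closer to 0.

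The small day 2 changes were the least secure. Ccnd3 (-0.29 ± 0.11, edgeR adjusted p = 0.0452), Cdk4 (0.18 ± 0.07, edgeR adjusted p = 0.0336) and Cdkn2b (-0.53 ± 0.21, edgeR adjusted p = 0.0423) were near the threshold. Without the day 2 NC library 1 member was higher and 6 lower, with Ccnd3 at -0.15 (edgeR adjusted p = 0.266), Cdk4 at 0.30 (0.00163), Cdkn2b at -0.50 (0.0847) and Cdkn1b at -0.24 (0.0409), while Ccnd1, Ccnd2, Cdkn1a, Cdkn2a and Cdkn2c passed in both fits. The call of Ccnd3 was also lost without any 1 of the 3 undifferentiated, the day 2 naloxone, the day 4 DAMGO or the day 8 NC libraries (edgeR adjusted p = 0.0664 to 0.121). That of Cdk4 was lost without any 1 of the 3 undifferentiated or the day 2 naloxone or day 2 DAMGO libraries (edgeR adjusted p = 0.0609 to 0.165), and with a trend on GC content and length removed it was -0.18 (adjusted p = 0.0147). That of Cdkn2b was lost without undifferentiated NC, undifferentiated DAMGO, day 2 DAMGO, or the NC or naloxone library of day 4 or day 8 (edgeR adjusted p = 0.052 to 0.185). Cdk6 at day 2 was -0.32 ± 0.26 (edgeR adjusted p = 0.286), and -0.56 without the day 2 NC library (edgeR adjusted p = 0.0568). Over the libraries left out in turn it ran between -0.56 and -0.0036, and it passed with the trend on GC content and length removed (-0.60, adjusted p = 0.0321). With that trend removed Ccnd3 was -0.66 and Cdkn2b -0.88 at day 2 (adjusted p = 1.59e-05 and 0.00335).

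Downstream of the kinases, most of the E2F axis fell. Over all genes tested, 33.7% were higher and 35.9% lower at day 2, 31.4% and 31% at day 4, and 41.6% and 38.5% at day 8. Of 19 genes of this axis, 17 were lower and 1 higher at day 2, 17 lower and 2 higher at day 4, and 15 lower and 1 higher at day 8, with a median log2 change of -1.66 at day 8. Ccna2, the cyclin of S and G2 phase, stood at 2.96 ± 0.527 CPM at day 8 against 384 ± 10.2 CPM in undifferentiated cells (log2 -7.03 ± 0.12, edgeR adjusted p = 6.26e-11). The atypical repressors E2f7 and E2f8 changed by -6.40 and -5.77 log2 units at day 8, and Ccne2, which drives entry into S phase with CDK2, changed by -6.03. At day 8 E2f7, E2f8 and Ccne2 had 8, 15 and 19 counts over the 3 libraries together, so these folds rest on few reads. The 1 gene that was higher at day 8 was Rbl2, which encodes the pocket protein p130 of resting cells. It stood at 74.3 ± 5.64 against 54.3 ± 4.94 CPM (log2 0.45 ± 0.10, edgeR adjusted p = 0.00145), and it was named after its value was seen. In TPM its libraries overlapped, with 24.6 to 28.9 at day 8 against 22.2 to 27.9 in undifferentiated cells. Of the DREAM and MMB complexes, which silence or activate cell cycle genes, 5 of 8 were lower and 2 higher at day 8. Mybl2 and Foxm1, which are activating partners, changed by -5.02 and -4.75 log2 units, and Lin9 and Lin54 of the shared core by -3.45 and -2.37.

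None of 3 further inhibitor genes was higher at day 8. Cdkn2d, which encodes the Ink4 protein p19, stood at 23.7 ± 2.05 CPM at day 8 against 42.3 ± 2.78 CPM in undifferentiated cells (log2 -0.83 ± 0.12, edgeR adjusted p = 7.08e-05). The shares of all genes were 33.7% higher and 35.9% lower at day 2, 31.4% and 31% at day 4, and 41.6% and 38.5% at day 8. Of the 3 inhibitor genes, 1 was higher and 2 lower at day 2 and at day 4, and 2 were lower at day 8. Cdkn1c, which encodes p57, was the one that was higher, by 2.21 ± 0.16 log2 units at day 2 (edgeR adjusted p = 1.02e-06) and 1.82 ± 0.17 at day 4, and at day 8 it was 4.83 ± 0.779 CPM against 4.10 ± 0.490 CPM in undifferentiated cells (edgeR adjusted p = 0.299). It was named after its values were seen.

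Among 16 tested genes that act upstream of the members, 6 were higher and 6 lower at day 8, close to the 41.6% and 38.5% of all genes. Id1, an inhibitor of basic helix-loop-helix factors that responds to BMP signals, rose by 4.03 ± 0.11 log2 units (108 ± 17.8 CPM at day 8 against 6.54 ± 0.924 CPM in undifferentiated cells). Ezh2, the Polycomb methyltransferase known to repress the Cdkn2a locus, fell by 2.84 ± 0.13 log2 units (27.1 ± 2.42 CPM against 193 ± 5.29 CPM). Ets1 fell by 1.94 and Foxo1, a forkhead factor held in the cytoplasm by growth signals, rose by 1.75. Of 11 genes of D cyclin and p27 degradation, 6 were higher and 4 lower at day 8, where the shares of all genes were again 41.6% and 38.5%. Skp2, the F-box protein that marks p27 for destruction, fell by 2.38 ± 0.15 log2 units, and its cofactor Cks1b changed by -2.64 ± 0.16. Fbxo4, an F-box protein reported to act on cyclin D1, rose by 1.77 ± 0.17, and the scaffold gene Cul1 fell by 1.37 ± 0.15. All of these passed edgeR's test at an adjusted p under 0.05.

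In the remaining lists, 2 of 5 other G1 and orphan cyclin genes were higher and 3 lower at day 8, against 41.6% and 38.5% of all genes. Ccnc fell and Ccng1 changed by -1.74 log2 units, while Ccndbp1, whose product binds cyclin D, rose by 1.56 and Ccni by 0.74. Of 5 CDK activators and chaperones, 1 was higher and 1 lower at day 8. Ccnh, the cyclin of the CDK-activating kinase, fell by 1.08 ± 0.19 and Cdc37, a chaperone partner of CDK4, rose by 0.20 ± 0.08 (edgeR adjusted p = 0.0407).

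The members followed different sets of genes across the 12 libraries of the drug experiment. Over 10700 genes with a mean of at least 5 CPM, the genes most like Ccnd1 in log2 CPM were H2afz (Pearson r = 0.996), Tle2 (0.995) and Rrm1 (0.994), while those most like Ccnd2 were Nes (0.994), Igfbp3 and Cnot9. Cdk4 was most like Rack1 (0.998), Rpl6 (0.997) and Rpl7a (0.997), which are genes of the ribosome, and Cdkn2c most like Cenpm (0.992), a centromere gene. Cdkn2b was most like Ccdc80 (0.990), Osbpl1a and Lpar1, Cdkn2a most like Ddit4l (0.989), Cdkn1a most like Ybx3 (0.991), Cdk6 most like Itgav (0.994), Ccnd3 most like Ywhag (0.974), and Cdkn1b most like Pcgf3 (0.964). Among the members, Ccnd1 went with Ccnd2 (0.974) and Cdkn2c (0.955), and Cdkn2b ran opposite to Cdk4 (-0.966) and Cdk6 (-0.941). These coefficients describe 12 libraries that fall into 4 stages, and libraries of 1 stage share their cells' state and are not independent points.

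Neither drug changed a member past the threshold. The comparisons of naloxone and DAMGO with NC ask how opioid signalling acts on these cells, and for naloxone the members' log2 differences lay between -0.52 and 0.14, with SE of 0.06 to 0.26. The one farthest from 0 was Cdk6 (-0.52 ± 0.26, edgeR adjusted p = 0.472). Its difference from NC under naloxone was -1.28 in log2(CPM + 0.5) at day 2 but 0.48 at day 4, and the day 2 NC library is the one that stood apart. Cdkn1a differed from NC by 0.16, 0.10, 0.32 and 0.04 under naloxone and by 0.19, 0.04, 0.20 and 0.10 under DAMGO over undifferentiated, day 2, day 4 and day 8, and both drugs are set against the same NC libraries. Fitted over the stages its difference was 0.14 ± 0.07 for naloxone and 0.13 ± 0.07 for DAMGO (edgeR adjusted p = 0.47 and 0.951), and neither passed. Between naloxone and DAMGO the largest difference was also that of Cdk6 (-0.30 ± 0.27, edgeR adjusted p = 1.0).

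In each of these 3 drug comparisons edgeR called 0% of 13144 genes, and DESeq2 and limma-voom also called 0. At an unadjusted p under 0.05 there were 1332 genes for naloxone, 314 for DAMGO and 229 between the drugs, and 0 of them were members. Whether a drug acted otherwise on differentiating than on undifferentiated cells was tested with an interaction. That test called 0% of genes for naloxone and 0% for DAMGO, with 226 and 212 at an unadjusted p under 0.05 and 0 members among them. With 1 library for each drug and stage, these tests do not show that the drugs left the members unchanged.

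**Figure D5:**
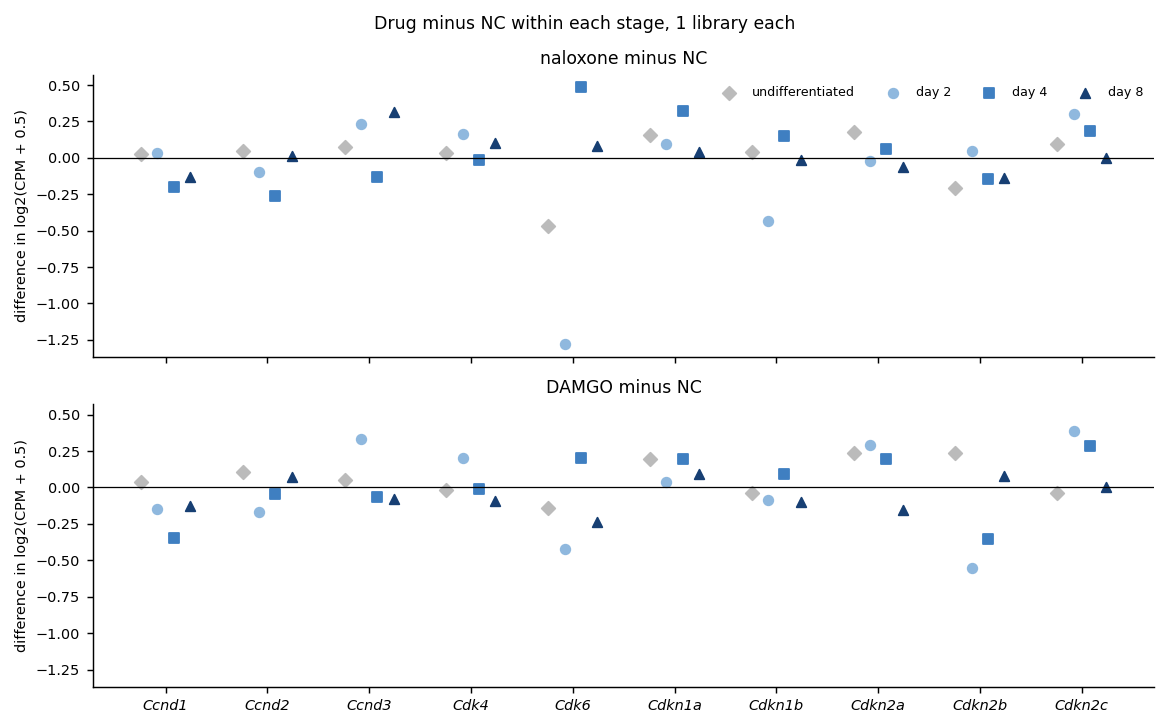
Difference between drug and NC in log2(CPM + 0.5) for each gene and stage, naloxone first and then DAMGO. Most points lie near 0, and Cdk6, which has few counts, scatters most, with -1.28 for naloxone at day 2 and 0.48 at day 4.

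Time in culture was addressed by the reference libraries, 1 at each passage. The spread behind their tests comes from the 12 libraries of the drug experiment. These tests therefore do not show that passage left the members unchanged. Between passage 13 and passage 8, edgeR called 0.0217% of 13855 genes (3 genes) and 0 members. Cdk6 differed most, with 4.94 TPM at passage 13 against 9 TPM at passage 8 (log2 -0.89 ± 0.42, edgeR adjusted p = 1.0), followed by Cdkn2b with 7.82 against 10.7 TPM. Cdkn2a, which is known to rise with passage in many cultured mouse cells, stood at 49.4 TPM at passage 13 against 38.7 TPM at passage 8 (log2 0.33 ± 0.21, edgeR adjusted p = 1.0). Between the 3 undifferentiated libraries of the drug experiment and the reference libraries, 0.686% of genes were called and 0 members. The smallest adjusted p was that of Ccnd2 (log2 -0.19 ± 0.08, edgeR adjusted p = 0.396). Ccnd1 stood at 1278 to 1306 TPM in the undifferentiated libraries, against 1340.4 and 1385 TPM in the passage 13 and passage 8 references.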

How the data were processed

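Libraries came from total RNA with a TruSeq kit, per the labels' protocols. The submitters' processing notes name Bowtie, RSEM and mm10, without versions. The strand setting and the annotation release are not given. Per the file headers, the deposited tables give for each gene an expected count, a TPM, an FPKM and a mean transcript length, all made by the authors. The expected counts were not whole for 10.4 to 13.1% of genes and were rounded here. The FPKM values were not used. Without strand, reads of overlapping genes on opposite strands cannot be told apart.

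Counts were tested with edgeR 4.0.16 (quasi-likelihood, TMM scaling, filterByExpr by stage) in R 4.3.3, with Benjamini-Hochberg adjustment over 13144 genes (13855 over 14 libraries) and a threshold of 0.05. Stage and treatment entered an additive model of 12 libraries with 6 residual degrees of freedom, and interactions a model with 4. p-values measure the spread of single libraries around these models. The SE given with an edgeR change is the absolute log2 change divided by the square root of the test's F statistic. It is not a fitted SE and can disagree with the p-value. In the model of 14 libraries each reference library had a term of its own, so the spread came from the other 12. Transcript length was tested on the log2 scale with limma 3.58.1, a test added after the length column had been seen. Alternatives used DESeq2 1.42.0, limma-voom, limma on log2(TPM + 1) and log2(TPM + 0.1), other scaling, no filter, removal of the trend on GC content and length (mgcv 1.9.3), and each library left out. Scripts were tested on simulated counts. Positions come from GENCODE M21 (mm10), where all 10 genes were found by ID, and promoter windows from RefSeq (GRCm38.p6).

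The members, the gene lists and the tests were chosen with earlier results of these data known. All 10 members are described in every comparison. From each other list at most 4 genes are named, those past the threshold at day 8 with the largest change and a mean of at least 5 CPM, and for each member the 3 genes with the most similar profile over the 12 libraries, with predicted genes passed over. Rbl2 and Cdkn1c fall outside this rule and were named after their values were seen.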

Additional observations from a re-analysis of the deposited data

How the results depend on the processing

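Up to 23 settings were tried, 21 of them for each comparison of stages. Of the 50 values of a member in a comparison of stages, 33 kept their side of the threshold in all of them, and 1 of these, Cdkn1b at day 4, changed sign without passing (-0.21 to 0.08). The number of members called at day 2 was 8 as reported, 5 with DESeq2 and 10 with the trend on GC content and length removed, and 5 to 8 when 1 library was left out, with 5 without the undifferentiated NC or the undifferentiated DAMGO library. At day 4 it was 8 to 9, at day 8 it was 9 to 10, and it was 7 to 9 both between day 2 and day 4 and between day 4 and day 8. Over the same settings 8241 to 9577 of all genes were called at day 2, where 9156 of 13144 were called as reported. It was 7318 to 9128 genes at day 4 and 9944 to 11061 at day 8. Between day 2 and day 4 it was 4967 to 7806, and between day 4 and day 8 it was 8056 to 9489. No member was called for either drug, between the drugs, in either interaction, or in either reference comparison.

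Every change of sign in which either value passed the threshold came from the removal of the trend on GC content and length. The cause was not tested. Cdk4 was -0.18 and Cdkn1b 0.43 at day 2. At day 8 Ccnd3 was -0.12, Cdkn1b 0.31 and Cdkn2a -0.51. Cdkn1b was -0.43 from day 2 to day 4 and 0.30 from day 4 to day 8, and Cdkn2c was -0.42 from day 4 to day 8. Values that passed in neither fit also changed sign, Ccnd3 at day 4 on the TPM scale (0.18) and without the day 4 naloxone library (0.02), Cdkn1b from day 2 to day 4 without the naloxone library of day 2 or day 4 (-0.09 and -0.007), Cdkn1b at day 4 as above, and Cdkn2c from day 4 to day 8 with library totals (-0.05) or on the TPM scale (-0.21).

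Of the genes called from day 4 to day 8, 54.1% were higher with TMM scaling and 43.5% with library totals. Counts of all genes called moved by over 1.5 times in the small comparisons, to 0 to 22 for passage 13 against passage 8 (3 as reported), 29 to 333 for undifferentiated against reference libraries (95 as reported), at most 2 for DAMGO against NC and between the drugs, 6 for the naloxone interaction and 9 for the DAMGO interaction (0 as reported in each). No paired analysis was possible because each condition has 1 library and the labels give no replicate number to pair by. Drugs were compared with NC within stages, through the stage term of the additive model. The interactions could not be fitted without the undifferentiated NC library, nor without the undifferentiated library of the drug concerned. Depth limits Cdk6 at day 8, with 6 to 12 counts in a library.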
